A study of Homo sapiens with 6 samples.

Results

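MHC class I antigen presentation was examined as 9 genes chosen by name: the heavy chains HLA-B, HLA-C, HLA-E and HLA-F, the light chain B2M, the peptide transporter subunits TAP1 and TAP2, the loading factor TAPBP and the transactivator NLRC5. Members were found by matching numeric gene IDs to RefSeq symbols. Of the 30727 genes listed, 7 were members (HLA-C, HLA-F, B2M, TAP1, TAP2, TAPBP and NLRC5), and HLA-B and HLA-E were not analysed here. RNA sequencing of poly(A) RNA from the human cell line PANC-1, derived from a carcinoma of the pancreatic duct, covered 3 libraries with siRNA against SUV420H2 (knockdown) and 3 control libraries. SUV420H2, now named KMT5C, methylates a lysine of histone H4. All libraries came from the same line, and the labels give neither the kind of control, nor the time after transfection, nor whether the libraries came from separate cultures. The p-values therefore measure the spread between these libraries, which may be technical.

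Class I molecules display peptides from inside the cell to CD8 T cells and natural killer cells. Proteasomes cut proteins into peptides, the TAP1-TAP2 transporter carries these into the endoplasmic reticulum, tapasin (encoded by TAPBP) and its partners load them, and the complex of heavy chain, B2M and peptide moves to the surface. NLRC5 binds no DNA by itself and activates class I promoters through the RFX and NF-Y complexes, which sit on the X and Y boxes. Interferon raises most genes of the pathway through ISRE sites, and low surface class I is a known feature of pancreatic ductal cancer cells.

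The promoters of both heavy chains, of the light chain and of TAP1 belong to genes that were lower together and are shown. Each carries matches to some of the strings marked below, and only that of B2M to all of them. Each runs 5′ to 3′ on the gene's own strand from 250 bases before to 50 bases after the RefSeq start (GRCh38.p14). HLA-C lies at chr6:31272043-31272342 (minus strand), HLA-F at chr6:29723184-29723483 (plus strand), B2M at chr15:44711267-44711566 (plus strand) and TAP1 at chr6:32853655-32853954 (minus strand). Capitals mark matches on either strand to the ISRE core GAAANNGAA, the Y box CCAAT and the X2 core TGACGN.
HLA-C: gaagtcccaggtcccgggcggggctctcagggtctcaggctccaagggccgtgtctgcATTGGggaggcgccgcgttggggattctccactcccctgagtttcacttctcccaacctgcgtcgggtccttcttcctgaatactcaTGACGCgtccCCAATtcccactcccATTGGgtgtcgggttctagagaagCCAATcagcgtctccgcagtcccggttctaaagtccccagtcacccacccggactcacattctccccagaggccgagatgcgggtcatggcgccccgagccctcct
HLA-F: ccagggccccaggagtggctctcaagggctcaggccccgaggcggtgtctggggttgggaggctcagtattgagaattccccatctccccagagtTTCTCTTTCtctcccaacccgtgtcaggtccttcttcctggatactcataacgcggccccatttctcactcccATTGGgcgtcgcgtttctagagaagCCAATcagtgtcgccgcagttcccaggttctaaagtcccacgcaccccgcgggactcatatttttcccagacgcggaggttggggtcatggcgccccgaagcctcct
B2M: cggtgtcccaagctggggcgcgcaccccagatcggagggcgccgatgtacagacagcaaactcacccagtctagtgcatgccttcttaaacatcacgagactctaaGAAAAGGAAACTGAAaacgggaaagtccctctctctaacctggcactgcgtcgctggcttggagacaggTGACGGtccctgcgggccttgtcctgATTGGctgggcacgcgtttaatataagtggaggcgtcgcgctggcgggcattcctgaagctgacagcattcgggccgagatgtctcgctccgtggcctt
TAP1: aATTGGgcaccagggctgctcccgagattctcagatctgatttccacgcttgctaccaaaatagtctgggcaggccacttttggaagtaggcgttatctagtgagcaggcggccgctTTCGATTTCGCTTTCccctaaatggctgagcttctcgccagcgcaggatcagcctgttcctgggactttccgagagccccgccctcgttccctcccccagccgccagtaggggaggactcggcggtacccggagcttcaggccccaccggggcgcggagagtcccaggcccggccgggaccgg

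RefSeq promoter windows were at hand for 6 of the 7 members (all but NLRC5). The ISRE core was present in 5 of them (HLA-F, B2M, TAP1, TAP2 and TAPBP), against 8.11% of 35116 windows of the same length. The Y box was present in HLA-C, HLA-F, B2M and TAP1, against 34.6% of windows, and the X2 core in HLA-C, B2M and TAP2, against 24.5%. In HLA-C the X2 core began 105 bases before the start and was followed by Y box matches beginning 95, 80 and 56 bases before it, while in B2M the X2 core began 75 and the Y box 49 bases before the start. The string GGGANTCCC, a narrow form of the kappa B site, was in none of the 6 windows, against 0.877% of all windows. Looser forms of the ISRE, Y box, X2 and kappa B sites were not searched, so the absence of a site from a window was not shown. The matches given here describe letters in a window and not bound sites.

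The knockdown libraries held 27007534 to 38022772 counted reads and the control libraries 20863594 to 25931995. The targeted gene KMT5C had 6.03, 6.11 and 5.86 CPM (CPM being the TMM-scaled share of a library's counted reads) in the knockdown, against 9.55, 7.23 and 12.7 CPM in the controls (log2 fold change −0.72, SE 0.163, edgeR adjusted p = 0.00227). Of the 15190 genes tested, 33.1% were called higher and 34.2% lower in the knockdown at an edgeR adjusted p under 0.05, so single calls were common, and the median log2 fold change was −0.01. Counts of control replicate 3 differed more from the other controls (chi-square per degree of freedom 11.3 and 13.6) than those 2 from each other (1.55), and results that changed without a library are given where they arise. Of 5 epithelial keratins, KRT7, KRT8, KRT18 and KRT80 were called higher and KRT19 lower. KRT8, KRT18 and KRT19 were the most abundant, with 2590, 2343 and 734 CPM on average in the knockdown and 893, 791 and 915 CPM in the controls. Of 17 leukocyte markers, 16 had a row, and their summed level was 131 to 139 CPM in the knockdown and 97.0 to 107 CPM in the controls, nearly all of it CD68. The defining markers PTPRC, CD3E and MS4A1 had 2, 1 and 1 reads in the knockdown libraries together, against 1, 1 and 0 in the controls together. Fibroblast and endothelial markers summed to 7.60 to 8.17 CPM in the knockdown and 1.98 to 2.23 CPM in the controls, mostly PDGFRB, and brain cell markers to 2.25 to 2.40 CPM in the knockdown and 7.75 to 8.87 CPM in the controls, mostly SYT1, with AQP4 at 0 throughout. The part of these differences in the results was not tested.

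All 7 members with a row were lower in the knockdown, each with its 3 knockdown libraries below its 3 control libraries. The knockdown level ran from 31.2% of the control level for NLRC5 to 90.3% for B2M. By edgeR's quasi-likelihood test with Benjamini-Hochberg adjustment over all genes, 7 of 7 members were called lower, against 34.2% of all genes called lower and 67.3% called in either direction. None was called higher, also at an unadjusted p under 0.05 and with DESeq2 or limma-voom. The groups did not overlap for 7 of 7 members, against 71.3% of all genes in either direction and 36.3% with all knockdown libraries below the controls. The median log2 fold change of the members was −0.78. All 7 passed the low-count filter, and each had at least 29 reads in every library. In these bulk libraries, fewer cells expressing a gene and less of its RNA per cell cannot be told apart.

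**Figure D1:**
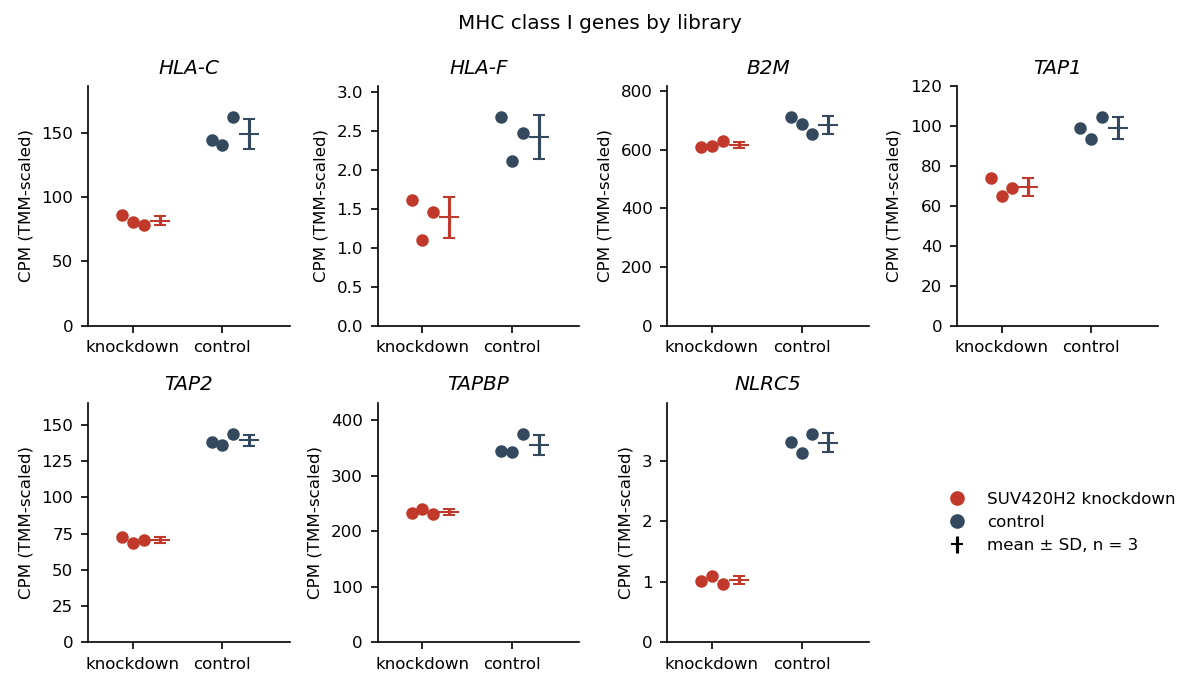
TMM-scaled CPM of each member by library, with knockdown libraries left of control libraries and the mean ± SD (n = 3) beside the points; each vertical axis starts at 0. In every panel the 3 knockdown points lie below the 3 control points, by the smallest margin relative to its level for B2M (629 CPM in the highest knockdown library and 653 CPM in the lowest control).

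Of the heavy chains, HLA-C, a classical molecule that presents peptides and binds killer-cell receptors, was the abundant one. HLA-C (gene ID 3107; chromosome 6, 31268749 to 31272092) had 85.8, 80.5 and 78.6 CPM in the knockdown libraries, against 145, 140.3 and 162 CPM in the controls. Every knockdown library lay far below the lowest control, at 54.8% of the control mean on average (log2 fold change −0.87, SE 0.0600, edgeR adjusted p = 2.72e-07). HLA-F (gene ID 3134; chromosome 6, 29723434 to 29738532), a nonclassical heavy chain that can reach the surface without peptide, was scarce. It had 62, 30 and 44 reads in the knockdown libraries and 67, 44 and 63 in the controls, which after scaling for depth gave 1.62, 1.10 and 1.46 CPM in the knockdown against 2.68, 2.12 and 2.47 CPM in the controls. It gave a log2 fold change of −0.78, with a wide SE of 0.172 (edgeR adjusted p = 0.00197). HLA genes are near-identical in long stretches and polymorphic, and the deposited counts hold uniquely aligned reads only, so their levels may be too low and reads of unlike alleles may be missing.

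B2M encodes the invariant light chain of class I molecules. B2M (gene ID 567; chromosome 15, 44711517 to 44718145) had 610.3, 614 and 629 CPM in the knockdown libraries, against 711, 689 and 653 CPM in the controls. The groups were close but did not overlap, and the knockdown level was 90.3% of that of the controls. Knockdown over control gave a log2 fold change of −0.15 (SE 0.0429, 95% interval −0.24 to −0.05, edgeR adjusted p = 0.0101). The call did not hold without knockdown replicate 1 (adjusted p = 0.0529) or without control replicate 1 (adjusted p = 0.0834), with adjusted p-values over the alternatives from 9.22e-07 to 1.

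Both subunits of the transporter fell. TAP1 (gene ID 6890; chromosome 6, 32845209 to 32853704) had 74.0, 65.2 and 69.2 CPM in the knockdown libraries, against 99.2, 93.8 and 104 CPM in the controls. TAP2 (gene ID 6891; chromosome 6, 32821831 to 32838739) had 72.9, 68.7 and 70.3 CPM in the knockdown libraries, against 138, 136 and 144 CPM in the controls. No library of either gene crossed between the groups, and TAP2 stood at 50.7% and TAP1 at 70.0% of the control mean (log2 fold changes −0.98, SE 0.0454, and −0.51, SE 0.0589; edgeR adjusted p = 1.31e-08 and 1.59e-05). TAPBP (gene ID 6892; chromosome 6, 33299694 to 33314078), whose product tapasin holds empty class I molecules next to the transporter, had 233, 240.4 and 231 CPM in the knockdown libraries, against 345, 343 and 375 CPM in the controls. Its groups did not overlap (log2 fold change −0.59, SE 0.0460, edgeR adjusted p = 6.68e-07).

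Some members share genomic bases with other genes, and no source used here says whether reads were counted by strand. TAP1 overlaps the noncoding gene PSMB8-AS1 by 1292 bases, and PSMB8-AS1 was itself lower (log2 fold change −0.56, SE 0.0692, edgeR adjusted p = 2.69e-05). TAPBP overlaps RGL2 by 1919 bases, and RGL2 stood at −0.08 (edgeR adjusted p = 0.165). HLA-F overlaps HLA-F-AS1, which had 15, 8 and 10 reads in the knockdown libraries and 8, 6 and 7 in the controls and was not tested. The part of these overlaps in the values of the members was not tested.

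NLRC5, the transactivator of class I genes, showed the largest relative fall of the 7 members. NLRC5 (gene ID 84166; chromosome 16, 56989557 to 57083520) had 39, 30 and 29 reads in the knockdown libraries and 83, 65 and 88 in the controls. In CPM these were 1.02, 1.10 and 0.965 in the knockdown against 3.32, 3.13 and 3.45 in the controls, with no overlap between the groups. Knockdown over control gave a log2 fold change of −1.68 (SE 0.139, 95% interval −1.99 to −1.38, edgeR adjusted p = 1.08e-06). Its paralog CIITA, which activates class II genes, had 22 reads in the knockdown libraries together and 18 in the controls together and was below the filter.

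Tested against a change of 1.5-fold instead of no change (edgeR's glmTreat), HLA-C, TAP2 and NLRC5 were called lower (adjusted p = 0.000541, 4.89e-06 and 2.13e-05), against 9.16% of all genes in that direction. HLA-F (adjusted p = 0.200), TAPBP (0.673), TAP1 (1) and B2M (1) did not pass that test.

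The levels of the members spanned more than 3 orders of magnitude on the scale per length, for which the authors' size-factor-adjusted RPKM were used. B2M led with 599 ± 10.2 RPKM in the knockdown and 656 ± 32.7 RPKM in the controls (SD, n = 3 each). HLA-C and TAPBP were next and were not apart in the controls, at 86.1 to 97.9 and 81.8 to 88.1 RPKM, whereas in the knockdown HLA-C, at 48.6 to 53.0 RPKM, lay below TAPBP, at 55.6 to 57.7 RPKM. TAP1 averaged 21.6 ± 1.38 RPKM in the knockdown and 30.5 ± 1.43 RPKM in the controls, and TAP2 11.1 ± 0.332 RPKM in the knockdown and 21.7 ± 0.450 RPKM in the controls. HLA-F averaged 0.403 ± 0.0762 RPKM in the knockdown and 0.691 ± 0.0797 RPKM in the controls, and NLRC5 was lowest with 0.138 ± 0.00938 RPKM in the knockdown and 0.438 ± 0.0182 RPKM in the controls. Apart from HLA-C and TAPBP in the controls, no neighbouring members in this order had overlapping libraries within a group.

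**Figure D2:**
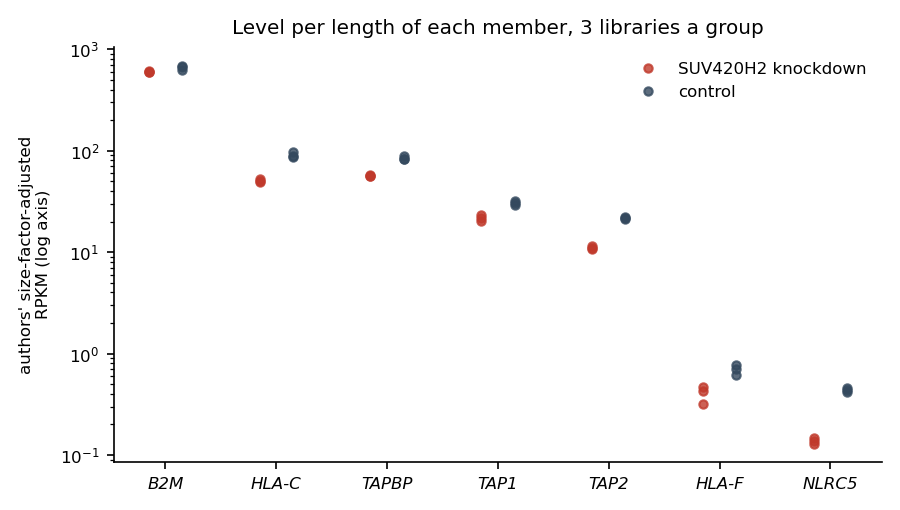
Size-factor-adjusted RPKM of each member as deposited (log axis), with 3 knockdown libraries left of 3 control libraries and genes ordered by their control mean. B2M lies far above the other members, at 592 to 611 RPKM in the knockdown and 620.2 to 684 RPKM in the controls, and NLRC5 is lowest, under 0.150 RPKM in every knockdown library and under 0.460 RPKM in every control.

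Ratios within a library do not depend on the scaling between libraries, and 6 pairs were compared. The ratio of HLA-C to B2M averaged −2.92 ± 0.0853 on the log2 CPM scale in the knockdown and −2.20 ± 0.164 in the controls (SD, n = 3 each), a difference of −0.72. That of HLA-F to B2M averaged −8.79 ± 0.279 in the knockdown and −8.14 ± 0.167 in the controls, a difference of −0.66. Both heavy chains were thus lower relative to the light chain in the knockdown. The ratio of TAP1 to TAP2 was higher in the knockdown, at 0.02, −0.08 and −0.02, than in the controls, at −0.48, −0.54 and −0.46, a difference of 0.47. In all 6 pairs the groups did not overlap, which gave p = 0.1 in an exact two-sided permutation test, the smallest p that 3 against 3 libraries allow (adjusted over the 6 pairs, 0.1).

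**Figure D3:**
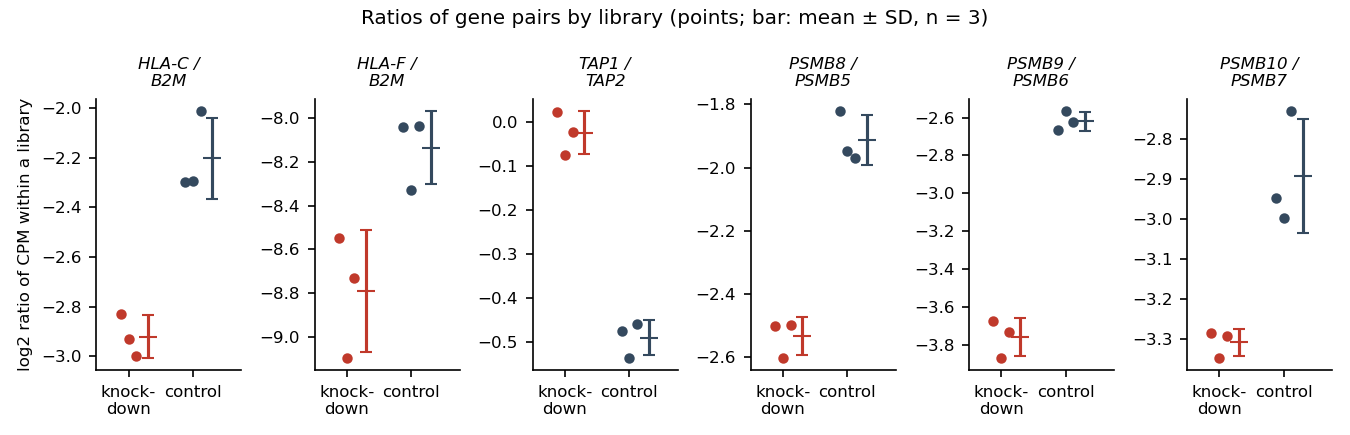
Log2 ratio of the CPM of 2 genes within each library for 6 pairs, knockdown left of control, with mean ± SD (n = 3) beside the points; the axes do not start at 0. The ratio of TAP1 to TAP2 is higher in the knockdown (difference 0.47), and the other 5 ratios are lower, most of all that of PSMB9 to PSMB6 (difference −1.14).

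The immunoproteasome, the form of the proteasome that favours peptides suited to class I molecules, was lower in all its subunits tested. Of 5 genes, 5 were called lower, against 34.2% of all genes, with a median log2 fold change of −0.78. PSMB9, a catalytic subunit, had 8.25, 6.74 and 7.95 CPM in the knockdown libraries, against 17.6, 18.9 and 20.5 CPM in the controls (log2 fold change −1.31, SE 0.0939, edgeR adjusted p = 3.69e-07). PSME1 and PSME2, the subunits of the PA28 activator, stood at −1.04 (SE 0.0539) and −0.78 (SE 0.0488), and the other catalytic subunits PSMB8 and PSMB10 at −0.53 (SE 0.0665) and −0.29 (SE 0.0796), with PSMB10 the nearest to the threshold (edgeR adjusted p = 0.00765).

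The constitutive counterparts of these subunits were called in both directions, with small changes. PSMB5 stood at 0.09 (95% interval −0.02 to 0.20, edgeR adjusted p = 0.141) and PSME3, the alternative activator, at 0.05 (95% interval −0.05 to 0.16, edgeR adjusted p = 0.322), whereas PSMB6 fell (−0.18) and PSMB7 rose (0.13). The assembly factor POMP, listed with these genes but not a counterpart of any subunit, fell (−0.29). The calls of PSMB6 (without knockdown replicate 2, adjusted p = 0.0811, range 0.00316 to 1) and PSMB7 (without knockdown replicates 1 or 3, adjusted p = 0.0863 and 0.0714, range 0.00178 to 1) did not hold with each library left out, and PSMB5 was called higher without control replicate 3 (adjusted p = 0.00358). Within libraries, each catalytic immunoproteasome subunit was lower relative to its counterpart in the knockdown. The difference in log2 ratio was −1.14 for PSMB9 to PSMB6, −0.62 for PSMB8 to PSMB5 and −0.42 for PSMB10 to PSMB7.

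Both trimming enzymes of the endoplasmic reticulum and the tapasin relative fell. ERAP2, an aminopeptidase that trims peptides in the endoplasmic reticulum, had 15.5, 16.1 and 15.3 CPM in the knockdown libraries, against 41.5, 40.3 and 37.2 CPM in the controls (log2 fold change −1.34, SE 0.0642, edgeR adjusted p = 1.63e-08). ERAP1, its partner, stood at −0.64 (SE 0.0557), TAPBPL, a peptide editor related to tapasin, at −0.81 (SE 0.115), and UGGT1, which returns badly loaded molecules for another round, at −0.50 (SE 0.0528); all 3 were called lower. ERAP1 and ERAP2 overlap in their annotated spans on chromosome 5, so without strand their reads can be shared. Of the lectin chaperones, CALR rose by 0.28 (SE 0.0387) and CANX stood at −0.01 (95% interval −0.12 to 0.09, edgeR adjusted p = 0.82), with CANX called lower without control replicate 3 (−0.065, adjusted p = 0.0269). PDIA3, the thiol oxidoreductase of the loading complex, stood at 0.03 (edgeR adjusted p = 0.5) and LNPEP, an endosomal trimming enzyme, at 0.10 (edgeR adjusted p = 0.264), while SEC61A1 (0.66) and the protease IDE (0.20) rose. Of these 10 genes, 3 (30%) were called higher and 4 (40%) lower, against 33.1% and 34.2% of all genes, with a median of 0.01.

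**Figure D4:**
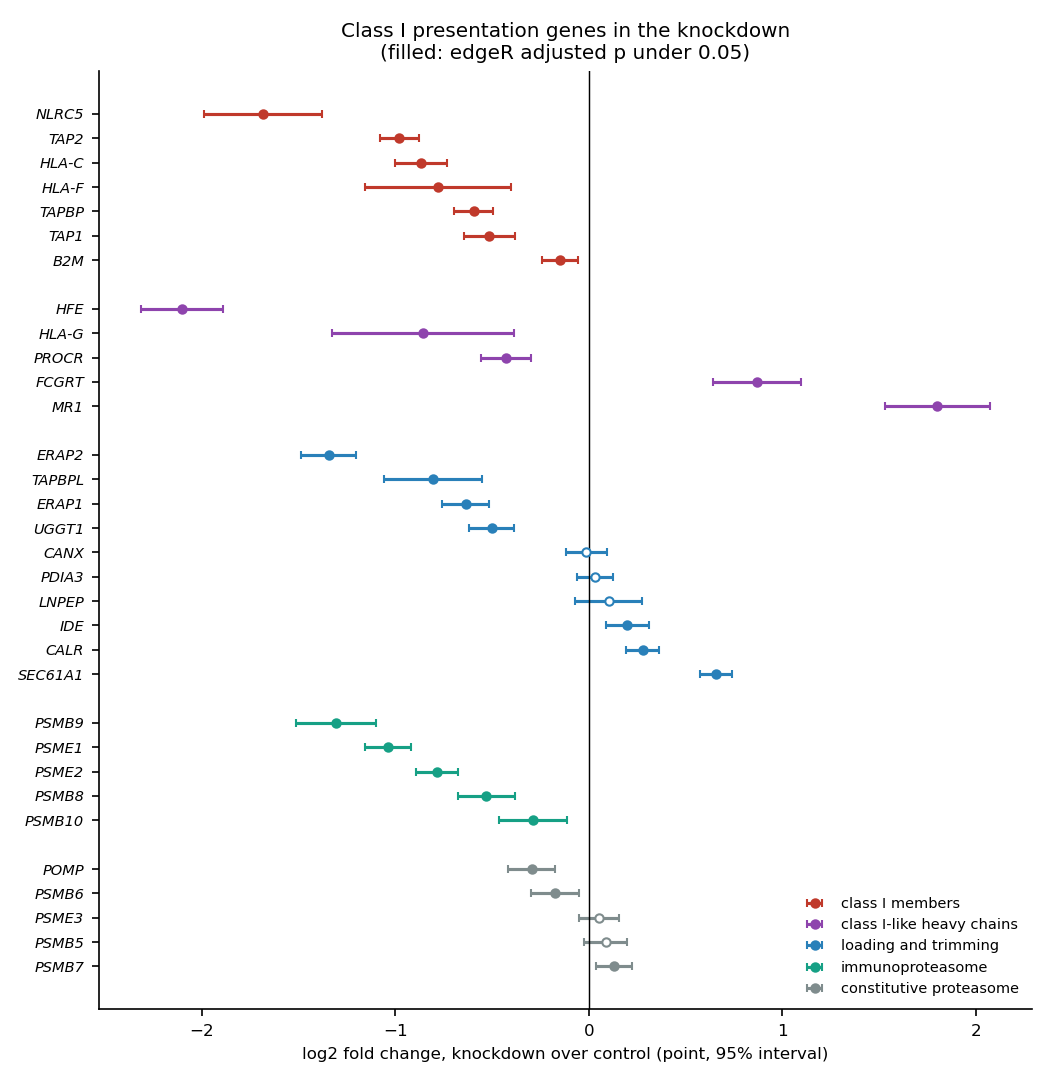
Log2 fold change of knockdown over control with its 95% interval for members and other genes of the pathway, grouped by role; filled points passed an edgeR adjusted p under 0.05. All 7 members and all 5 immunoproteasome genes lie left of 0, and the class I-like heavy chains lie on both sides, from −2.10 for HFE to 1.80 for MR1. The genes listed as constitutive proteasome lie between −0.29, for the assembly factor POMP, and 0.13.

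Other proteins built like class I heavy chains went in both directions. HFE, a regulator of iron uptake that pairs with B2M, had 5.98, 4.68 and 6.22 CPM in the knockdown libraries, against 24.0, 24.4 and 24.6 CPM in the controls (log2 fold change −2.10, SE 0.0956, edgeR adjusted p = 1.13e-08). MR1, which presents vitamin metabolites to MAIT cells, had 5.01, 5.01 and 5.13 CPM in the knockdown libraries, against 1.60, 1.40 and 1.33 CPM in the controls (log2 fold change 1.80, SE 0.122, edgeR adjusted p = 2.32e-07). FCGRT, the neonatal Fc receptor, also rose (0.87, SE 0.103). HLA-G, a nonclassical heavy chain with 59 reads in the knockdown and 80 in the controls in all, fell (−0.86, SE 0.213, edgeR adjusted p = 0.00414), as did the protein C receptor PROCR (−0.43, SE 0.0591). Of the 5 tested, 2 (40%) were called higher and 3 (60%) lower, against 33.1% and 34.2% of all genes.

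Among regulators of class I transcription, subunits of NF-Y and of RFX were called in both directions. NFYA, the subunit of NF-Y that reads the Y box, had 33.0, 33.1 and 32.8 CPM in the knockdown libraries, against 84.0, 90.0 and 81.9 CPM in the controls (log2 fold change −1.37, SE 0.0519, edgeR adjusted p = 3.46e-09). Of its partners, NFYC rose (0.37, edgeR adjusted p = 2.88e-05) and NFYB stood at −0.02 (edgeR adjusted p = 0.819). RFX5, the DNA-binding subunit of RFX, fell (−0.80, SE 0.0533), as did RFXANK (−0.29, SE 0.0889), and RFXAP rose (0.62, SE 0.149). Of the interferon regulators, IRF9 (−1.29, SE 0.0902) and IRF2 (−0.89, SE 0.0634) fell, whereas IRF1 stood at 0.05 (edgeR adjusted p = 0.599) and IRF3 rose (0.23, SE 0.0579). The NF-kB subunits NFKB1 (−0.90, SE 0.0608) and RELA (−0.59, SE 0.0580) fell. The interferon-gamma receptor chain IFNGR1 (0.61, SE 0.0651) and the kinase JAK1 (0.74, SE 0.0483) rose. The other chain IFNGR2 (−0.33, SE 0.0417) and the kinase JAK2 (−0.45, SE 0.132) fell. Of 31 regulators tested, 11 (35.5%) were called higher and 13 (41.9%) lower, against 33.1% and 34.2% of all genes, with a median of −0.01.

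Of the 9 tested genes listed for class I turnover, 6 were called higher, against 33.1% of all genes, and 2 lower, against 34.2% (median log2 fold change 0.22). Not all genes on this list act by removing class I molecules, so the count is not a measure of removal. MARCHF9, a ubiquitin ligase that takes class I from the surface, had 5.07, 5.78 and 5.49 CPM in the knockdown libraries, against 1.44, 1.64 and 1.92 CPM in the controls (log2 fold change 1.70, SE 0.133, edgeR adjusted p = 7.17e-07). TMEM127, part of a complex that sends class I to lysosomes, rose by 0.45 (SE 0.0451), and SYVN1, a ligase of protein disposal from the endoplasmic reticulum, by 0.53 (SE 0.0536). The 2 called lower were MARCHF4 (−0.41, SE 0.0806, edgeR adjusted p = 0.000954) and NBR1 (−0.13, SE 0.0498, edgeR adjusted p = 0.0433). NBR1 is an autophagy receptor known to carry class I molecules in pancreatic cancer cells. Pooled over the 64 other class I pathway genes, leaving out the constitutive proteasome, 60 were tested, with a median of −0.01. Of these 60, 22 (36.7%) were called higher and 27 (45%) lower, against 33.1% and 34.2% of all genes.

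Interferon-stimulated genes outside the pathway were counted beside the members because interferon raises both. Of 28 listed, 24 were tested, with a median of −0.63. Of these 24, 17 were called lower (70.8%, against 34.2% of all genes) and 4 higher (16.7%, against 33.1%). UBE2L6, the conjugating enzyme for ISG15, had 3.06, 3.28 and 2.96 CPM in the knockdown libraries, against 17.8, 18.5 and 18.6 CPM in the controls (log2 fold change −2.56, SE 0.0830, edgeR adjusted p = 1.19e-09). WARS1, an interferon-induced tRNA ligase, fell by 0.80 (SE 0.0398) on the log2 scale and DDX60 by 1.96 (SE 0.0983), while IFIT2 rose by 1.29 (SE 0.0643).

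Of 11 class II presentation genes with a row, 4 passed the low-count filter and were tested. CD74, the class II invariant chain, had 76 reads in the knockdown libraries and 164 in the controls (log2 fold change −1.52, SE 0.208), and the protease CTSS also fell (−0.71, SE 0.171). IFI30, a lysosomal thiol reductase and the most abundant of the 4, averaged 41.8 CPM in the knockdown and 28.8 CPM in the controls and rose (0.54, SE 0.0618), as did HLA-DOB, with 51 reads in the knockdown libraries and 8 in the controls (2.21, SE 0.353).

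Of the 7 members with a row, 5 lie in the MHC region of chromosome 6, and other genes there were called in both directions. Between the start of HLA-F and the end of TAPBP, 113 other genes were tested, of which 35 (31.0%) were called higher and 35 (31.0%) lower, against 33.1% and 34.2% of all genes, and their median log2 fold change was −0.05. The 4 with the smallest p were PPP1R11 (−1.01), NEU1 (0.90), ATF6B (−0.96) and MDC1 (0.68). TAP2, PSMB8, TAP1 and PSMB9 follow each other in that order within a short stretch, and all 4 were lower, while HLA-DOB, beyond TAP2, was higher. TAP1 and PSMB9 start back to back on opposite strands, and their log2 fold changes were −0.51 and −1.31.

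**Figure D5:**
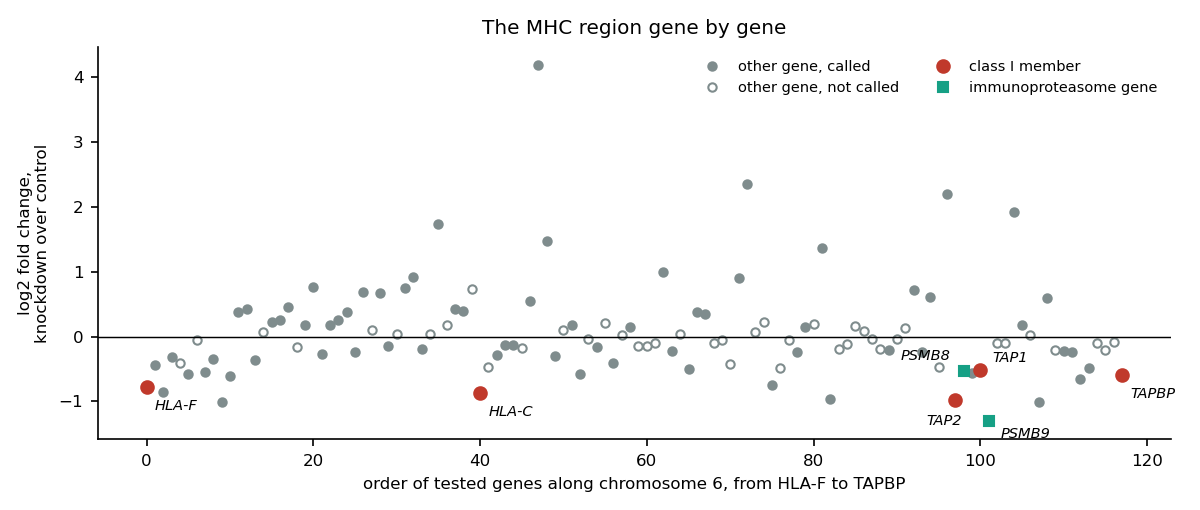
Log2 fold change of knockdown over control for tested genes in their order along chromosome 6 from HLA-F to TAPBP; red points are the 5 members there, green squares PSMB8 and PSMB9, grey points the other genes (filled where called). The members lie between −0.98 and −0.51, and the 113 other genes scatter around a median of −0.05.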

How the data were processed

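Per the labels, poly(A) RNA of PANC-1 cells was sequenced, and groups were taken from the siRNA label. Per the submitters' processing notes, reads were aligned with GSNAP to GRCh38; for versions, annotation and strand the entry is: not given in the sources used here. Per the file headers, the deposited counts are reads aligned uniquely to a gene model, and the deposited RPKM were adjusted by the authors with a size factor. RefSeq (GRCh38.p14) gave symbols for 27814 of 30727 gene IDs, and its promoter table the sequences. IDs without a symbol stayed in the tests.

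Counts were filtered with filterByExpr (minimum count 10, minimum total 15; 15190 genes left), normalised by TMM and put through glmQLFTest of edgeR 4.0.16 (two-sided; R 4.3.3), with Benjamini-Hochberg adjustment over all genes tested and a threshold of 0.05. The SE is the log2 fold change over the square root of its F statistic. The test was checked on simulated counts. Fold changes are knockdown over control, and CPM are means over 3 libraries where so stated. Log2 ratios used a prior count of 0.5. No libraries of a group held identical counts, and each pair differed by more than sampling noise. Alternatives used DESeq2 1.42.0 and limma 3.58.1.

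The members and gene lists were chosen with earlier results of these data known. Named were all members, KMT5C, all tested genes of the lists of heavy chains, loading, immunoproteasome and constitutive proteasome, the 8 regulators, 3 turnover genes and 4 genes each of the class II, interferon and region lists with the smallest p among those called, and CIITA. Genes named beside these (RFXAP, RFXANK, NFYB, NFYC, IRF1, IRF3, IFNGR2, JAK2, NBR1, MARCHF4, PSMB8-AS1, RGL2, HLA-F-AS1 and cell type markers) were chosen after their values were seen.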

Additional observations from a re-analysis of the deposited data

How the results depend on the processing

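No paired analysis was possible because the labels give no replicate numbers. Each tested gene given by the naming rule, but not those chosen after their values were seen, was refitted under 13 alternatives, or 12 where a minimum mean log2 CPM of 1 left it out: scaling by upper quartile or by DESeq2 size factors, leaving out the filter, that minimum, the DESeq2 Wald test, limma-voom, glmTreat against a 1.5-fold change and each library left out. HLA-C, TAP2 and NLRC5 kept their direction and call under all of them, TAP1, TAPBP and HLA-F under all but glmTreat, and B2M under all but glmTreat and 2 left-out libraries. Under glmTreat, 3 members were called lower, 5 other pathway genes higher and 10 lower, and 2998 of all genes were called. With a library left out, 6 or 7 members were called lower and none higher, 19 to 23 other pathway genes were called higher and 25 to 30 lower, and 9184 to 11277 of all genes were called. The sign of CANX, not called in the report, turned with a minimum mean log2 CPM of 1 (0.0020) and without knockdown replicate 1 (0.00085), control replicate 1 (0.0066) or control replicate 2 (0.025), and without control replicate 3 it was called lower (−0.065). No scaling moved the median of all genes by more than 0.1 on the log2 scale. Ratios of gene pairs kept their direction with a prior count of 2 and with each library left out. Depth limits HLA-F, HLA-G, NLRC5, CD74, CTSS and HLA-DOB, whose reads per library are few, and unique alignment limits the HLA genes.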
